A study of Homo sapiens with 18 samples.

Results

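The regions described here are the nuclear R-loop regions of wild-type (WT) MCF10A cells treated with DMSO, mapped by S9.6 DNA–RNA immunoprecipitation and sequencing (DRIP–seq). Every entry of the peak list of this library on the 22 autosomes and chromosome X was taken, 91894 regions of the 774635 in the 9 peak lists of the series, and the list holds 13 mitochondrial entries that were left out. The series has 18 samples and compares WT MCF10A cells with cells that lack the cytosine deaminase APOBEC3B (A3B) after DMSO or the phorbol ester PMA, and also maps GFP-tagged A3B. The cells behind the list carried no engineered allele and received only DMSO, the solvent of PMA, for a time that the labels do not give. MCF10A is an immortalized, nontumorigenic human breast epithelial line of basal character, grown here with horse serum, EGF, hydrocortisone, cholera toxin and insulin. Several immunoprecipitations were pooled into 1 library and set against its own input, so there is no replicate, no spread between replicates and no test in what follows, and intervals cover counting error only. Sequencing after RNase H treatment was not analysed here, and an entry is therefore S9.6-precipitated DNA above input at that place.

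An R-loop forms when RNA pairs with the DNA strand it was copied from and leaves the other DNA strand single. Such structures are known to form behind RNA polymerase, often just past gene starts and near gene ends, and a sense strand richer in G than in C favours the RNA/DNA hybrid. RNase H enzymes, helicases such as DHX9, topoisomerases and RNA-packaging factors remove or prevent them. The S9.6 antibody binds RNA/DNA hybrids, and the study holds that rRNA detected by it likely explains nucleolar staining that RNase H mostly spared. Whether its binding depends on sequence was not tested here. Sonicated fragments carry flanking DNA, so a region marks the neighbourhood of a hybrid and not its edges or its strand.

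Each region was 500 bp wide and centred on a summit, the base where the pileup of sequenced fragments was highest. The list gives 3 values for a summit: the pileup, the fold enrichment over the input-derived background, and the −log10 of a q-value. Fold enrichment had a median of 4.32, with 80% of the regions between 2.95 and 6.97, and a highest value of 151. The median pileup was 21 fragments. Most of the landscape was therefore of modest height, with a thin upper tail of 1695 regions (1.84%) at a fold of 10 or more and 282 (0.307%) at 20 or more. The list holds 74833 called peaks, of which 62890 (84.0%) had 1 summit and 399 had 5 or more. The regions covered 45.2 Mb, the median gap between neighbouring summits was 6.90 kb, and 13.0% of the regions overlapped a neighbour.

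The sequence of strong summits in genes is shown because several of them share a sense strand rich in runs of G. The 7 windows below are the strongest by fold enrichment, 1 for each peak and gene, among windows that hold no annotated UTR base and lie in genes of a single strand. Each holds 150 bases of hg38 centred on the summit, on the sense strand of the gene, with runs of 3 or more G in capitals.
H1-2: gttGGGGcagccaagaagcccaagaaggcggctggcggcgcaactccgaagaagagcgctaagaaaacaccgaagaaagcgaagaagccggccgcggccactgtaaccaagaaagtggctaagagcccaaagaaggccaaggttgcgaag
RPL22L1: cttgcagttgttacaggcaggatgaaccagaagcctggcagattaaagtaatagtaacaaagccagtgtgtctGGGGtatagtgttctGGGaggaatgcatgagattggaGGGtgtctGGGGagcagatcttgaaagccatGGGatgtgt
RPL17: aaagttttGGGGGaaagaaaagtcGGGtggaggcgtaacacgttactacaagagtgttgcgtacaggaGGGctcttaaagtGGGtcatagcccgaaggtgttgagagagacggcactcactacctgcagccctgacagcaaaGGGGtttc
POLR3E: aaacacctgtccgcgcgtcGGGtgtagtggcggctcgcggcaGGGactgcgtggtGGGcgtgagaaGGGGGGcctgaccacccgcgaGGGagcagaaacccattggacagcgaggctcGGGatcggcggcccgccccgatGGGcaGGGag
DDIT4: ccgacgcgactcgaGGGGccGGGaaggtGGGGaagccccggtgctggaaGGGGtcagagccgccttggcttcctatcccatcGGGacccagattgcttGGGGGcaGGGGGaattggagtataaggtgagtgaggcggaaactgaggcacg
ENSG00000280441: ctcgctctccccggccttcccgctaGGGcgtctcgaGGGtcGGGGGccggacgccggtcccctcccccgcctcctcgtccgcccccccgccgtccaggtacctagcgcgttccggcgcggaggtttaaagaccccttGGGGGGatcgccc
RPS23: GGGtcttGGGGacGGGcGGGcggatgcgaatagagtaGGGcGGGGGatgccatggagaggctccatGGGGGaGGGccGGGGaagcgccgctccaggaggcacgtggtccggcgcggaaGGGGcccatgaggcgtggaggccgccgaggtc
The window of H1-2, a linker histone gene, lies in its coding sequence (chr6:26055886-26056035, minus strand) and holds 1 run of G against 2 of C. That of RPL22L1, a paralogue of a ribosomal protein gene, lies in an intron (chr3:170867228-170867377, minus strand), with 5 runs of 3 or more G and 0 of C. That of RPL17 lies in the first intron (chr18:49491957-49492106, minus strand), with 5 runs of G against 2 of C. POLR3E, a subunit of RNA polymerase III, has its window in the first intron (chr16:22297834-22297983, plus strand), with 8 runs of G against 4 of C. The window of DDIT4, a stress-induced inhibitor of mTOR signalling, is at its summit 595 bp after the start and lies in exon sequence of a transcript with no annotated coding or untranslated part there (chr10:72274440-72274589, plus strand), with 7 runs of G against 3 of C. ENSG00000280441 is a long noncoding RNA model over the ribosomal DNA of chromosome 21, and its window lies in an intron (chr21:8439225-8439374, plus strand). It goes the other way, with 4 runs of G against 7 of C. The window of RPS23 lies in the first intron (chr5:82278126-82278275, minus strand), with 10 runs of G against 1 of C. The sense strand thus had more runs of G than of C in 5 of these 7 windows. Counted by base, (G−C)/(G+C) was 0.149 in the window of H1-2, so G outnumbered C there, and −0.168 in that of ENSG00000280441. Over the 926 regions of 500 bp at a fold of 10 or more in protein-coding genes of a single strand, this value was above 0 in 77.8%. In 500 bp tiles of such genes it was above 0 in 56.5%.

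Gene by gene, 13401 of 19970 protein-coding genes (67.1%, Wilson 95% interval 66.5% to 67.8%) held at least 1 summit between their start and end in GENCODE 44. Among these genes the median number of summits was 3, 3210 genes had 1, 4571 had 5 or more, 1380 had 10 or more and 233 had 20 or more. Long noncoding RNA genes held a summit in 28.1% of cases (5276 of 18756, interval 27.5% to 28.8%) and pseudogenes in 6.07% (901 of 14835). Small RNA genes, which are far shorter than the spacing of the summits, held one in 0.884% (62 of 7015). Where a long noncoding RNA gene had a summit, its best fold enrichment had a median of 5.44, against 6.01 in protein-coding genes. Within the pseudogenes, transcribed unitary pseudogenes held a summit in 47.4% of 154 and processed pseudogenes in 2.13% of 10007. Genes that overlap on the 2 strands share summits, and DRIP–seq as done here does not mark the strand, so the gene a shared summit belongs to cannot be told apart.

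Gene length went with these shares. Of protein-coding genes up to 2 kb long, 11.0% of 1071 held a summit. The share was 35.3% for 2 to 5 kb, 62.9% for 10 to 20 kb, 83.3% for 50 to 100 kb and 98.4% of the 322 genes over 500 kb. Summits per length went the other way above 2 kb, with 122 per Mb pooled over genes up to 2 kb, 198 per Mb for 2 to 5 kb, 90.4 per Mb for 20 to 50 kb and 10.3 per Mb over 500 kb. Across the 13401 genes with a summit, length correlated with the number of summits at a Spearman rho of 0.35 and with summits per kb at −0.75, as a description across genes that share 1 library. Best fold enrichment was nearly level across length, with class medians between 5.58 and 6.93.

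The highest summit of all was at RPS12, a ribosomal protein gene, with a fold enrichment of 151 and a pileup of 780 at 234 bp after the gene start. It was the only summit inside RPS12, and it also lies within 2 kb before SLC18B1 and close to the small nucleolar RNA genes SNORD100 and SNORD101 that RPS12 hosts. Among protein-coding genes H1-2 followed at 93.3, 510 bp after its start. KRT81 and KRT86, hair-type keratin genes of which KRT81 lies on the opposite strand within the annotated KRT86, shared summits of 80.1 and 60.8. RPL22L1 reached 70.8, and a further summit of 40.1 lay 267 bp after its start. DDIT4 had 69.4 at 1642 bp and 63.4 at 595 bp, both inside a gene of 2.12 kb. RPL17 reached 67.1, at a summit it shares with its readthrough gene RPL17-C18orf32, and RPL15 65.7, a summit that is also inside NKIRAS1. POLR3E reached 64.9 at 533 bp after its start, and RCC1, the nucleotide exchange factor of the GTPase Ran, 60.8 at a summit that also lies in the noncoding host gene SNHG3. RPS23, with 58.4 at 196 bp, and the translation elongation factor gene EEF1A1, with 54.3, came next. Of the 15 protein-coding genes with the highest best summit, 8 had it within 2 kb after the start, 5 in the body, 1 in the last 2 kb and 1 before the start. These are not 15 separate summits, because overlapping or neighbouring genes share some of them. The summit of RPL15, after its start, counts again in the body of NKIRAS1, and that of RPS12 counts again before the start of SLC18B1.

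Gene lists put these single genes in context. The lists were chosen with earlier results of these data known, and they are described by counts beside the same count over all genes: 70.0% of protein-coding genes (13971 of 19970) had a summit inside or within 2 kb before the start, with a median best fold enrichment of 5.94, and 8.31% of those reached a fold of 10.

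Ribosomal protein genes stood at the top. Of 85 genes, 83 had a summit (97.6%, interval 91.8% to 99.4%), the median best fold was 17.3, and 63 reached 10 and 34 reached 20. Behind RPS12, RPL22L1, RPL17, RPL15 and RPS23 came RPL41 at 49.98, RPL4 at 46.9 and RPSA at 43.7. The best summit lay before or within 2 kb after the start in 42 genes, in the body in 24 and in the last 2 kb in 17. RPL10L and RPL21 had none. RPL10L is the testis copy of RPL10, whose own best summit reached 6.58. Ribosomal protein genes have many near-identical processed copies, and how reads with several matches were placed is not given in the sources used here, so these values are uncertain to that extent.

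The rest of the translation and splicing machinery had summits throughout. All 30 translation factor genes had one, with a median best fold of 8.06, led by EEF1A1 at 54.3, the start-codon selection factor EIF1 at 44.5, the helicase EIF4A2 at 43.4 and its paralogue EIF4A1 at 27.4. EEF2, the elongation factor that moves the ribosome along, had 10 summits in 9.41 kb. All 30 splicing factor genes had one, with a median of 11.1, led by SRSF9 at 31.5, SRSF2 at 27.6, HNRNPA1 at 25.6 and SRSF7 at 24.3. The summit of SRSF9 lies 1067 bp before its start and inside DYNLL1, a dynein light chain gene, in its 3′ UTR. Small nucleolar RNA host genes had one in 26 of 31, with a median of 11.6: SNHG3 reached 60.8, DANCR 31.7, SNHG15 30.01 and SNHG16 29.4. Regions that overlap a small nucleolar or Cajal-body RNA gene, a class picked after the values were seen, were 60 of 91894. Their share was 0.0344% at a fold under 5, 0.0821% at 5 to 10 and 0.920% (13 of 1413) at 10 to 20. It did not rise further, with 0.709% (2 of 282) at 20 or more and 0 of 48 at 50 or more.

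Genes of the R-loop machinery carried R-loop regions in 21 of 22 cases (95.5%, interval 78.2% to 99.2%), with a median best fold of 7.33. Over all protein-coding genes the share was 70.0%. The listed genes are long, with a median of 51.1 kb, and 83.3% of all protein-coding genes of 50 to 100 kb held a summit. The RNA helicase genes DDX5, at 35.4, and DDX21, at 20.7, and the splicing factor gene SRSF1, at 24.2, were highest. DHX9, a helicase that unwinds RNA/DNA hybrids, reached 16.2 at a summit 700 bp before its end. BRCA1, a DNA repair gene, had 23 summits with a best of 8.01, and TOP1, which relieves supercoiling behind the polymerase, had 5 with a best of 7.02. Of the RNase H genes, RNASEH2C reached 13.4, RNASEH1 8.04, RNASEH2B 7.49 and RNASEH2A 6.57, those of RNASEH1 and RNASEH2A lying before the gene start. DDX41 had none.

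Housekeeping genes of metabolism and structure followed. Glycolysis genes had a summit in 17 of 19, with a median best fold of 10.2: the dehydrogenase genes LDHA and GAPDH reached 41.3 and 28.7, ENO1 had 15 summits with a best of 21.9 and PKM 19 with a best of 17.8. Cytoskeleton and adhesion genes had one in 31 of 33, with a median of 9.17. ACTB, which encodes β-actin, reached 49.5, and the tubulin genes TUBA1B, TUBB and TUBB4B reached 27.5, 27.01 and 26.1. Heat shock chaperone genes had one in 23 of 24, with a median of 6.27, close to that of all genes. In that list the constitutive chaperone gene HSPA8 reached 50.8 with a pileup of 570, and the stress-inducible HSPA1A had 3 summits in 2.40 kb, the highest at 3.22, although its near-identical copy HSPA1B makes that value uncertain.

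Linker histone genes repeated 1 position. H1-2, H1-5, H1-4 and H1-3 each held 1 summit, at 510, 525, 535 and 564 bp after the gene start, with fold enrichments of 93.3, 49.1, 46.5 and 14.7. All of these are intronless genes of under 1 kb, and the summits lie between 211 and 271 bp before the annotated end. H1-1 and the testis gene H1-6 had none. Over the whole list of replication-dependent histone genes, 28 of 69 (40.6%) had a summit inside or within 2 kb before the start and 15 had one inside. Histone genes resemble each other in sequence, and the doubt about reads with several matches holds for them too. They lie in tight clusters, so a summit before 1 gene can lie in another: the summit of H1-4 is also counted for H2BC5.

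Immediate early genes, which growth factors and PMA induce within minutes, had summits in DMSO. Of 29, 22 had a summit (75.9%, interval 57.9% to 87.8%), near the 70.0% of all protein-coding genes. Their median best fold was 10.4, and 12 of the 22 reached 10. MCL1, a survival factor of the BCL2 family, had 9 summits and a best fold of 48.9, MYC 7 and 43.9, IER3 1 and 40.1, and ZFP36L1, which destabilizes AU-rich mRNAs, 9 and 29.2. The AP-1 genes ranged lower, with JUN at 10.6 before its start, JUNB at 10.2, JUND at 7.60 and FOS at 6.95. ATF3, CCN2, EGR2, EGR3, FOSB, NR4A1 and NR4A3 had none. Feedback inhibitors of MAP kinase signalling had a summit in 13 of 17 (76.5%, interval 52.7% to 90.4%), also near the share of all genes. The phosphatase genes DUSP1 and DUSP6 reached 31.2 and 22.3, and DUSP2, DUSP5, DUSP8 and SPRY1 had none.

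The 16 genes that the study displays or has DRIP primers for span much of this range. HSPA8, H1-5, H1-4, DUSP1 and GAPDH lay between 50.8 and 28.7. SYT8, a synaptotagmin gene, reached 22.2 at 7388 bp after its start, NAXE 17.9, GADD45A 16.1, PHLDA1 14.3, GEMIN7 13.5, PIM3 11.7, JUNB 10.2 and FOS 6.95. DDX1 was lowest, with 4 summits and a best of 4.70. TFF1 had no summit. These genes were picked by the study, so their count of 15 of 16 is a description only. For several of them, among them GADD45A, PHLDA1, SYT8 and DDX1, the study also ran gene-specific PCR on S9.6-precipitated DNA. It reports that RNase H brought those signals down to background.

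Markers of cell type were read the same way as a check of the label. Basal epithelial genes had a summit in 23 of 24, with a median best fold of 8.34. SFN, which encodes the epithelial 14-3-3σ protein, reached 43.97, the calcium-binding protein gene S100A2 34.2, the basal keratin genes KRT5 and KRT14 27.1 and 18.2, and the integrin gene ITGB4 had 25 summits with a best of 18.3. TP63, the master transcription factor of basal epithelium, had 1, at 4.21, and KRT15 had none. Luminal genes had one in 6 of 13, with a median of 6.73. Of these 6, 1 reached a fold of 10, at 13.6, and the most summits in a luminal gene were 11. ELF5, FOXA1, KRT19, PGR, TFF1 and TFF3 had none. Luminal genes are shorter than basal genes. Among all protein-coding genes, 47.7% of those of 5 to 10 kb held a summit and 74.2% of those of 20 to 50 kb. Mesenchymal genes had one in 9 of 14, with a median of 7.18, and 3 of the 9 reached a fold of 10, against 8 of the 23 basal genes. The intermediate filament gene VIM reached 15.6, the smooth muscle actin gene ACTA2 14.5 and the transcription factor gene ZEB1 13.0, each at a summit it shares with an overlapping or neighbouring gene. Genes of immune cells had one in 10 of 16 with a median of 4.86, and genes of liver, nerve, muscle and testis in 9 of 22 with a median of 5.69. ALB, APOA1, INS, PTPRC, MS4A1 and CD14 had none. Olfactory receptor genes had one in 30 of 400 (7.50%, interval 5.30% to 10.5%), 18 of them with a summit inside the gene, and keratin-associated protein genes in 4 of 94, none with a summit inside. The zinc finger genes of chromosome 19 had one in 168 of 240, the share of all genes, and 3 of them reached a fold of 10. A summit is not a measure of expression, and the lists differ in gene length, with medians of 5.55 kb for ribosomal protein genes, 36.3 kb for basal genes, 7.09 kb for luminal genes and 2.24 kb for olfactory receptor genes, against 27.5 kb over all protein-coding genes.

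Counted per length, another set of genes came to the top. Of the 7706 protein-coding genes of at least 2 kb with 3 or more summits, the median was 0.105 summits per kb, 602 had 0.5 or more and the highest had 1.499. That gene was LTC4S, which encodes leukotriene C4 synthase, with 4 summits in 2.67 kb at folds between 2.61 and 3.69. S100A14, a calcium-binding protein gene of epithelia, had 4 in 2.73 kb at folds between 6.97 and 8.36, so that 67.3% of its bases lay inside regions. The homeobox gene PBX2 had 8 in 5.47 kb and PSMC3IP, a meiotic recombination factor gene, 8 in 5.52 kb. LGALS1, which encodes galectin-1, had 6 in 4.17 kb with 70.7% of its bases inside regions, the first of them, at 618 bp, the highest at a fold of 9.53. NFKBIA, the inhibitor of NF-κB, had 5 in 3.67 kb, all at folds between 7.18 and 9.69. POLR2L, a subunit gene of the RNA polymerases, had 7 in 5.17 kb, the proteasome genes PSME1 and ADRM1 4 in 2.81 kb and 9 in 6.77 kb, the lysosomal Ragulator gene LAMTOR4 9 in 7.03 kb, and the mitochondrial ribosomal protein gene MRPS7 6 in 4.70 kb. RNASEK had 3 in 2.12 kb, TMEM179B 4 in 2.999 kb and DUS3L, a tRNA dihydrouridine synthase gene, 8 in 6.39 kb.

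Density and height did not put the same genes first. Of the 15 densest genes, 1 had a best fold above 10: RPL29, with summits of 28.0, 8.18 and 12.3 in 2.37 kb. The others had best folds between 3.69 and 9.69. Over all protein-coding genes with a summit, 8.31% reached a fold of 10, so that count does not set the 15 apart. Further down the density ranking, RPL35 (rank 17) reached 19.9, CYC1 (21) 10.6, WBP1 (23) 10.7 and MIF4GD (25) 11.5. Across the 13401 genes with a summit inside, the number of summits correlated with best fold at a Spearman rho of 0.48. The 25 densest genes had a median length of 4.10 kb, against 55.9 kb for all genes that could enter the ranking, and 0 of the 20 densest were over 10 kb. Among genes of at least 10 kb the densest were BRD2, an acetyl-lysine reader gene, with 13 summits in 12.9 kb, GIPC1 with 18 in 18.4 kb, the duplicated RNA polymerase II subunit gene POLR2J3 with 10 in 10.5 kb and TICAM1, a Toll-like receptor adaptor gene, with 15 in 15.8 kb. Among long noncoding RNA genes ENSG00000268047 led, with 4 summits in 2.08 kb. By best summit ENSG00000289506 led, at the summit of 69.4 that lies before its start and inside DDIT4, and ENSG00000280441 at 62.4 and SNHG3 at 60.8 had theirs inside the gene. The nuclear noncoding RNA genes NEAT1, the scaffold of paraspeckles, and MALAT1, which sits in nuclear speckles, reached 36.7 with 10 summits and 20.2 with 4.

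**Figure D1:**
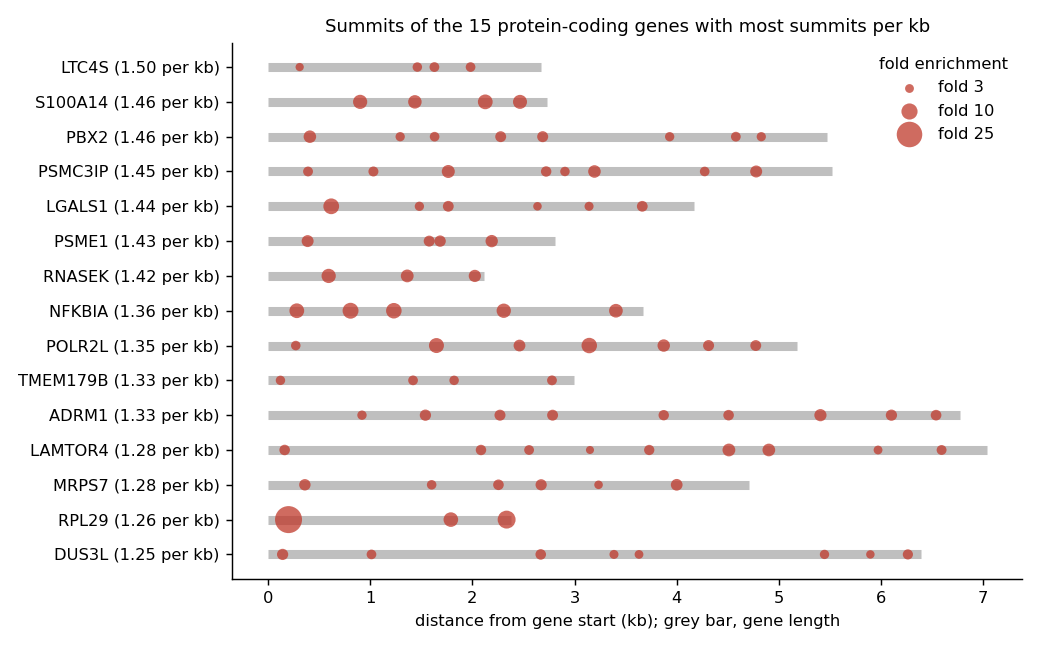
Position of every summit inside the 15 protein-coding genes with the most summits per kb, as distance from the gene start in kb, with the density in the label. Grey bars are gene lengths and the area of a point is proportional to its fold enrichment. Summits are spread along the genes, and RPL29, with 28.0 and 12.3, is the only gene of the 15 with folds above 9.69.

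By number alone, PDXDC1 led with 100 summits in 165 kb, none above a fold of 11.3. It lies in a duplicated part of chromosome 16, and 45 summits of 1 called peak run through 69.3 kb there. The neuronal splicing factor gene RBFOX1 had 59 in 2474 kb, the calcium channel gene CACNA1A 49 in 427 kb, the α-catenin gene CTNNA1 45 in 324 kb, NFIC 43 in 155 kb, NUP210L 42 in 162 kb and CUX1 40 in 468 kb. ENSG00000284461 had 44 in 182 kb. ENSG00000205236 had 48 in 60.3 kb and the overlapping ENSG00000270249 40 in 50.9 kb, and both lie in a chromosome 7 peak of 130 summits over 158 kb, the peak with the most summits of the list.

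Along genes, summits gathered just after the start. Around the starts of the 14856 protein-coding genes of at least 10 kb, there were 0.251 summits per gene and kb from 250 to 500 bp after the start, the highest of the 250 bp steps. The mean was 0.196 over the first 1 kb, 0.114 over the last 1 kb before the start, and 0.0876 from 2 to 5 kb after it. From 5 to 2 kb before the start it was 0.0879. In the 250 bp before the start the value dropped to 0.0969, between 0.130 in the step before and 0.180 in the step after. Around gene ends it was 0.0878 in the last 1 kb, 0.133 over the first 2 kb past the end and 0.110 from 2 to 5 kb past it. The height of summits moved less, with a median fold of 4.77 at 250 to 500 bp after the start and 3.96 at the far end of the 5 kb.

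**Figure D2:**
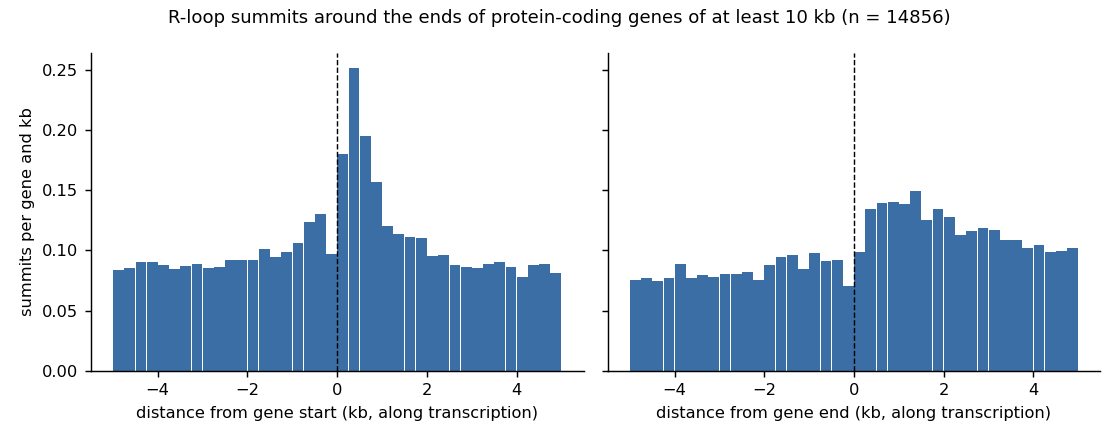
Summits per gene and kb in steps of 250 bp from 5 kb before to 5 kb after the start (left) and the end (right) of the 14856 protein-coding genes of at least 10 kb, along the direction of transcription. The highest step, 0.251, lies 250 to 500 bp after the start, and the values past the end stay above those before it, with 0.133 over the first 2 kb past the end against 0.0878 over the last 1 kb before it.

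Across whole gene bodies the spread was flat apart from both ends. In genes of 50 to 200 kb, the first 10% of the length held 16.0% of the summits, each further step of 10% between 8.36% and 10.9%, and the last 10.7%. Over all protein-coding genes, the first 2 kb of genes held 157 summits per Mb against 36.8 per Mb in gene bodies away from both ends, a ratio of 4.27. With only the regions that hold no run of 10 A or 10 T, a choice made after seeing the data, the ratio was 11.7. Most genes nevertheless had their best summit elsewhere. Of 13971 genes with a summit, 65.4% had the best of them in the body, 16.1% within 2 kb after the start, 10.7% before it and 7.73% in the last 2 kb. The best-summit medians of these places were close, at 5.94 in the body, 6.31 after the start, 5.75 before it and 5.75 in the last 2 kb.

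By annotation, 5′ UTRs were the densest class, with 145 summits per Mb, against 31.6 per Mb over the genome. The 2 kb past protein-coding gene ends had 111 per Mb, coding sequence 80.2, the 2 kb before starts 77.7, 3′ UTRs 67.2, first introns 50.9 and later introns 35.3. Long noncoding RNA introns had 19.3 and intergenic sequence 21.2. By number introns held the most summits, with 35.8% in later and 14.5% in first introns, and 25.3% of all summits were intergenic. The share at a fold of 10 or more was 8.31% in 5′ UTRs, 6.48% in coding sequence and 4.61% in 3′ UTRs, against 0.895% in later introns. Exons of protein-coding genes held 33.7% of the regions at a fold of 20 or more and 9.26% of all regions.

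Chromosomes differed in density. Chromosome 19 had 117 summits per Mb, chromosome 17 84.8, chromosome 22 68.2 and chromosome 16 59.1, against 15.01 on chromosome 13, 15.5 on chromosome 4, 15.7 on chromosome 18 and 16.8 on chromosome X. Over the 23 chromosomes the density followed that of protein-coding genes, with a Spearman rho of 0.90, given as a description because the points come from 1 library.

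The DNA under the regions was richer in G and C than the genome, with a mean GC content of 47.2% ± 7.61 (SD over 91894 regions) against 40.9% ± 8.11 in all 500 bp tiles. The strongest regions lay further from the genome, at 54.0% ± 10.9 for the 282 at a fold of 20 or more. These include 49 in a repetitive run of chromosome 4 and 39 in the first 8.5 Mb of chromosome 21, both described below. GC content also varied with position. Regions in the first 2 kb of genes had 58.3% against 52.6% in tiles there, and regions in gene bodies had 46.4% against 41.4%. CpG-rich promoters, with a GC content of at least 50% and a CpG observed over expected of at least 0.6 in the 1 kb around the start, had a summit within 2 kb of the start in 44.6% of 11598 genes (interval 43.7% to 45.5%), against 21.7% of 8372 other promoters (interval 20.8% to 22.6%).

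The sense strand of regions in genes carried more G than C, and the excess over tiles was largest in the first 2 kb. The GC skew, (G−C)/(G+C) on the sense strand, was measured for the 49177 regions whose summit lay in protein-coding genes of a single strand. In the first 2 kb it averaged 0.0996 ± 0.145 (SD over 4990 regions), against 0.0395 ± 0.141 in tiles of the same stretch, and 79.2% of the regions were above 0, against 62.2% of the tiles. The 390 regions there at a fold of 10 or more averaged 0.132 ± 0.111, and 88.5% were above 0. In gene bodies the 41420 regions averaged 0.0306 ± 0.183, against 0.0223 ± 0.136 in tiles. There 56.9% of the regions were above 0, close to the 56.4% of the tiles. The 408 body regions at a fold of 10 or more averaged 0.0836 ± 0.159, and 70.8% were above 0. Runs of 5 G on the sense strand stood in 63.5% of the regions in the first 2 kb, against 46.4% of tiles, and runs of 5 C in 46.9% against 42.0%. Around summits of the first 2 kb at a fold of 10 or more, the pooled skew was highest at the summit, at 0.254 in the 50 bp after it. It was 0.382 over the printed window of RPS23 and 0.282 over that of RPL17.

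**Figure D3:**
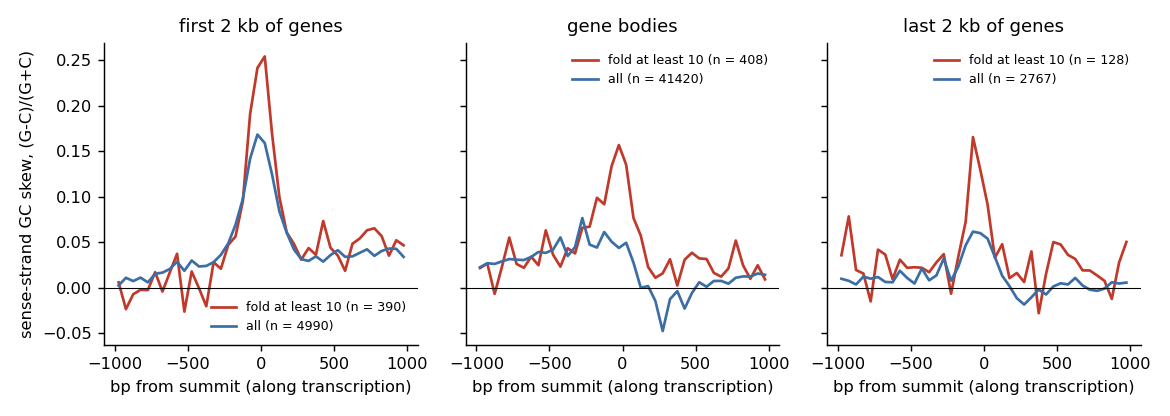
GC skew of the sense strand, (G−C)/(G+C), in 50 bp steps from 1000 bp before to 1000 bp after the summit along transcription, pooled over regions in the first 2 kb of protein-coding genes (left), in gene bodies (middle) and in the last 2 kb (right). Red lines are regions at a fold of 10 or more and blue lines all regions, with their number in the legend. The rise at the summit is highest in the first 2 kb at a fold of 10 or more. Over all body regions the skew is instead highest 300 to 250 bp before the summit, at 0.0766, and lowest 250 to 300 bp after it, at −0.0474.

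A second sequence feature marked the modest regions. A run of 10 or more A on either strand stood in 67.2% of all regions (interval 66.9% to 67.5%), against 15.2% of 500 bp tiles of the genome. By height the share was 62.6% at a fold under 5, 78.7% at 5 to 10, 35.6% at 10 to 20 and 7.80% at 20 or more. Runs of 5 G or C were more common above a fold of 10 but did not keep rising. They stood in 42.9% at a fold under 5, 41.4% at 5 to 10, 64.1% at 10 to 20 and 61.3% at 20 or more. At 50 or more the share was 47.9% of 48 regions (interval 34.5% to 61.7%), and in tiles it was 33.9%. Runs of A or T stood in 75.5% of intergenic regions and 73.7% of those in later introns, but in 15.1% of those in 5′ UTRs and 19.1% of those in coding sequence. In 4039 of the 13401 protein-coding genes with a summit (30.1%), every summit inside the gene had such a run in its region. Of the best summits of ribosomal protein genes 16 of 83 had one and of immediate early genes 2 of 22, against 128 of 163 in the zinc finger genes of chromosome 19 and 63.5% over all protein-coding genes.

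The runs lay mainly on 1 side of the summit, which depended on the strand that carries the A. At folds of 5 to 10, a run of A on the plus strand began 150 to 200 bp before the summit in 29.7% of the regions, and within the 50 bp after the summit in 1.45%. A run of T on the plus strand, which is a run of A on the minus strand, began 100 to 150 bp after the summit in 16.9% and 150 to 200 bp before it in 1.84%. Its starts were more widely spread, with 8.48% at 0 to 50 bp, 14.0% at 50 to 100 bp and 12.8% at 150 to 200 bp after the summit. Read along the strand that carries the A, the run therefore lay 5′ of the summit more often than 3′ in both orientations. In genes of a single strand, runs of 10 T on the sense strand stood in 39.3% of regions and runs of 10 A in 31.01%, against 10.3% and 7.53% of tiles. No repeat annotation was used here, and mappability of reads beside such runs was not measured, so their part in where summits were called was not tested.

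**Figure D4:**
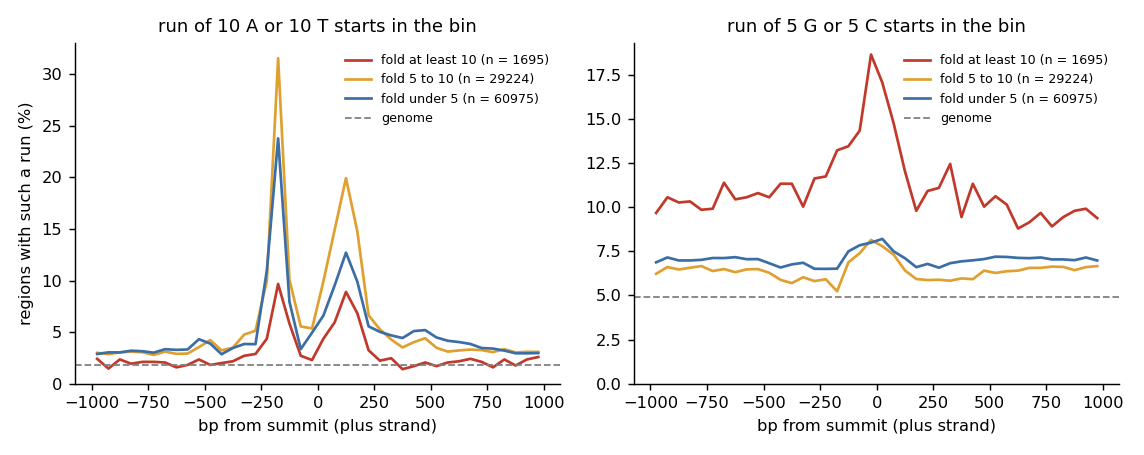
Share of regions in which a run of 10 A or 10 T (left) or of 5 G or 5 C (right) starts, in 50 bp steps from 1000 bp before to 1000 bp after the summit on the plus strand, for regions at a fold of 10 or more, of 5 to 10 and under 5. The dashed line is the share of all 50 bp steps of the genome, 1.86% (left) and 4.94% (right). Runs of A or T peak on both sides of the summit, most at folds of 5 to 10, and runs of G or C peak at the summit at a fold of 10 or more.

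Other short motifs gave no such contrast or were confined to few regions. The AP-1 site TGACTCA, searched on both strands, stood in 6.55% of the regions, 5.37% of those at a fold of 10 or more and 7.40% of genome tiles. The CpG run CGCGCG stood in 1.97% of the regions and 9.26% of those at a fold of 10 or more, against 0.515% of tiles.

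Some of the highest values lay outside single-copy genes. In chromosome 4, 77 summits of a single called peak filled 64.4 kb of intergenic sequence (chr4:49091986-49156428, hg38), with a median fold of 30.2, a highest fold of 105 and a median GC content of 41%. In the first 8.5 Mb of chromosome 21, which hold the assembled ribosomal DNA, 203 summits had a median fold of 5.69 and pileups up to 7793, the highest of the nuclear list. Both places are repetitive in the genome, so the unknown placement of reads with several matches bears on their values. These places account for 19 and 11 of the 48 regions at a fold of 50 or more, and for 49 and 39 of the 282 at 20 or more. Protein-coding genes held 17 of the 48 and 168 of the 282. The long noncoding RNA gene ENSG00000280441 lies in the chromosome 21 stretch and held 63 summits in 74.2 kb.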

How the data were processed

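The authors pooled S9.6 immunoprecipitations, sequenced 150 bp read pairs, trimmed them with cutadapt 1.13, aligned them to hg38 with STAR 2.6.1d, selected properly paired reads (SAMtools 1.3.1), dropped duplicates (Picard) and reads in excluded regions (bedtools 2.29.2), and called peaks with summits with MACS2 against the input at a q of 0.01. The MACS2 version differs between the methods and the submitters' processing notes (2.2.6), and entry names carry a fixed fragment extension where the methods state paired-end mode. The deposited list gives the pileup signal, the fold enrichment as a ratio and the −log10 of the q-value at each summit. Reads per library are not given in the sources used here, so the depth is unknown. Here, summits were placed in genes of GENCODE 44 (the authors used 31) with Python 3.11.15, numpy 2.4.6 and pandas 2.3.3. Whether starts count from 0 or 1 is not given, which moves a summit by 1 bp. Shares carry Wilson 95% intervals (scipy 1.17.1), which cover counting error only. Samples were not grouped, since 1 library was described. The placement code was tested on simulated data. Gene lists, alternatives and members were chosen with earlier results of these data known. Named were the 15 protein-coding genes with the highest best summit, the 15 with most summits per kb (at least 2 kb and 3 summits), the 10 with most summits, the 8 leading long noncoding RNA genes of each kind, up to 4 leaders of each list and the genes the study displays. Further genes, such as those named as having no summit, list members after the 4 leaders of their list and those densest above 10 kb, were chosen after their values were seen. A few genes that the naming rule selects are not reported here, although counts include them.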

Additional observations from a re-analysis of the deposited data

Results flagged for a closer look

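The 13 mitochondrial entries of the list stand outside the comparisons above and carried far more fragments than nuclear regions. Their pileups ran from 2685 to 27127, with a median of 3275, against a nuclear median of 21 and a nuclear maximum of 7793. Their fold enrichment had a median of 1.27 and a maximum of 12.3. There is 1 library, so no spread between replicates bears on these values.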

How the results depend on the processing

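Counts of genes held within a factor of 1.5 under the alternatives planned: 12086 to 13541 protein-coding and 4337 to 5626 long noncoding RNA genes had a summit. An alternative added after seeing the data kept only regions without a run of 10 A or 10 T. It left 9362 protein-coding and 2767 long noncoding RNA genes, and gave 20.1% of summits within 2 kb of a protein-coding start (9.86% with all regions), a density ratio of starts over bodies of 11.7 (4.27), a mean sense-strand skew of 0.0778 (0.0377) and a mean GC content of 51.3% (47.2%). With −log10 q of at least 5 the share near starts was 10.9%, the ratio 4.93 and the GC content 47.5%. With 1 summit for each MACS2 peak they were 8.95%, 3.83 and 46.7%. Within 1 kb of a start lay 5.77% of the summits. Of the 20 densest genes, 7 are over 5 kb and 0 over 10 kb, so a higher minimum length leaves that many by construction, and 10 stayed with −log10 q of at least 5, 0 with 1 summit for each peak and 14 by share of bases. Of the 20 genes with the strongest summit, 13 stayed by pileup, 14 by −log10 q and 18 with the summit inside the gene. Under each of these alternatives run on them, the density ratio stayed above 1 and the mean GC content and skew of regions above those of tiles. No paired analysis was possible because 1 library was described. With no reads, replicates or RNase H library in hand, neither the depth behind a value nor its dependence on hybrids was measured here. The study's own RNase H controls by PCR cover single genes.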
